A study of Mus musculus with 20 samples.

Results

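Broad H3K4me3 domains were the peaks of the deposited H3K4me3 list that spanned 2000 bp or more, and there were 1275 of them among 28013 H3K4me3 peaks (4.55%). The remaining 26738 peaks are called narrower peaks. All cells were CD4+/CD8+ double-positive T cells from the thymus of C57BL/6 mice, with no treatment or mutation given in the labels. Peak lists were used for 16 of the 20 samples, each for a different target, made by chromatin immunoprecipitation and sequencing or, for FAIRE, by isolation of open chromatin without an antibody. Domains were chosen by the measured width of the H3K4me3 peak, so width and H3K4me3 signal are given below as a description, and the other 15 lists are the measurements set against it.

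H3K4me3 is the trimethylated form of lysine 4 on histone H3 and sits on the nucleosomes around active gene starts. Most such marks are narrow, but some genes carry the mark far into the transcribed region, and in many cell types these broad domains lie at genes tied to the identity of the cell. Transcription at a gene start begins when TBP and its partners assemble the preinitiation complex with RNA polymerase II (Pol II). Serine 5 of the Pol II tail is phosphorylated near initiation (Ser5P), and serine 2 is phosphorylated as Pol II elongates (Ser2P).

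Each target had 1 list, made in 13 cases from merged replicates and in 3 cases (CBP, Taf1 and TFIIB) from 1 replicate, per the names of the deposited files. No spread between animals can therefore be given, and no test between conditions was possible. Shares carry 95% Wilson intervals, peak densities carry 95% exact Poisson intervals and ratios of densities carry 95% exact conditional binomial intervals. All of these cover counting error in the lists alone, and neighbouring H3K4me3 peaks share reads, lists and loci. The intervals of densities and ratios treat each peak as independent, although many peaks can lie in the same domain, and so may be too narrow. The sequencing depth behind the lists is not given in the sources used here. Coordinates are in build mm9, and regions are named by position, since an annotation of that build was not used here. For the same reason the labelled cell type was not checked against marker genes.

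Broad domains covered 3.98 Mb, which was 17.3% of the length and 23.0% of the area of the H3K4me3 list. Area is the authors' value, the area under their signal track over a peak. The median domain spanned 2640 bp, with 50% of domains between 2240 and 3420 bp and the widest at 25130 bp. The median narrower peak spanned 630 bp, with 50% of them between 400 and 930 bp. The area per bp, a measure of the height of the mark, had a median of 552 in broad domains and 299 in narrower peaks, in the authors' units. Broad domains were thus both longer and higher, and height differs together with width below except where peaks of like height are compared.

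The limit of 2000 bp did not fall at a gap in the widths. The 149 domains less than 100 bp above the limit and the 186 peaks less than 100 bp below it had median areas per bp of 536 and 522. Total Pol II peaks overlapped 79.2% of the domains just inside the limit and 69.9% of the peaks just outside it. For TBP these shares were 76.5% and 63.4%, for FAIRE 47.0% and 40.3% and for ETS1 13.4% and 15.6%. These shares were closer to each other than those of the whole classes below. Densities were not closer for every list, and TFIIA had 0.105 peaks per kb just inside the limit and 0.0441 just outside it, and Taf1 0.0854 and 0.0441.

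Many H3K4me3 peaks of the authors' list were parted from the next by short gaps. Of the broad domains, 300 (23.5%) lay within 100 bp of another H3K4me3 peak, and the smallest gap was 10 bp. When peaks separated by 500 bp or less were joined, 28013 peaks became 18922 runs, of which 3010 spanned 2000 bp or more. Those runs held all 1275 domains in 1212 runs, and 1798 further runs reached the limit by joining narrower peaks. In 52 runs there were 2 or more domains, with 5 at most. Domains are therefore not independent of each other, and 15455 narrower peaks (57.8%) lay within 500 bp of another H3K4me3 peak. Whether these were pieces of longer stretches was not tested. Peaks of other lists with their midpoint in such a gap are left out of the densities below, except where gaps are joined.

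Pol II lay in most broad domains. Total Pol II peaks overlapped 1041 of the 1275 domains (81.6%, interval 79.4 to 83.7) and 28.4% (27.9 to 28.9) of narrower peaks, against 30.8% of all H3K4me3 peaks. Ser5P peaks overlapped 841 domains (66.0%, 63.3 to 68.5) and 20.0% (19.5 to 20.5) of narrower peaks, against 22.1% of all. Ser2P peaks were rare in H3K4me3 chromatin, with 58 domains (4.55%, 3.54 to 5.84) and 0.606% (0.520 to 0.706) of narrower peaks, against 0.785% of all. The shares in the broad class were above those in all H3K4me3 peaks for each form of Pol II.

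**Figure D1:**
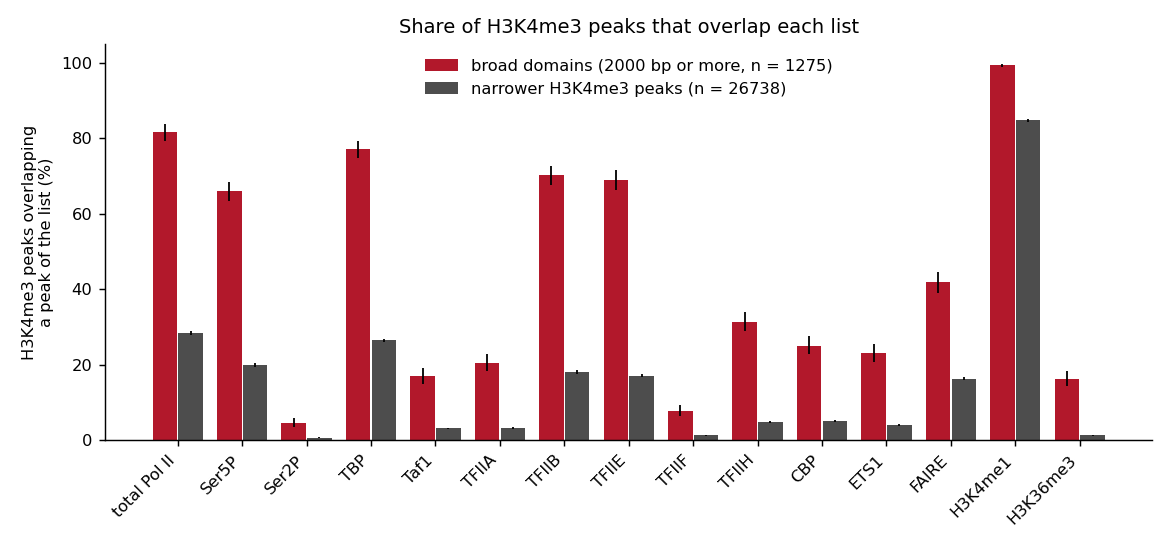
Share of H3K4me3 peaks, in percent, that overlap at least 1 peak of each of 15 lists by at least 1 bp, in broad domains (red, n = 1275) and in narrower H3K4me3 peaks (grey, n = 26738). Bars are shares and lines are 95% Wilson intervals; every list overlapped a larger share of broad domains, from 4.55% for Ser2P to 99.4% for H3K4me1.

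TBP, which binds the core promoter and starts the assembly of the preinitiation complex, overlapped 983 domains (77.1%, 74.7 to 79.3) and 26.4% (25.9 to 26.9) of narrower peaks, against 28.7% of all. TFIIB, which bridges TBP and Pol II, was found in 896 domains (70.3%, 67.7 to 72.7) and in 18.0% of narrower peaks, against 20.4% of all. TFIIE, which helps to bring in TFIIH, was found in 880 domains (69.0%, 66.4 to 71.5) and in 17.1% of narrower peaks, against 19.5% of all. These 3 factors lay in most broad domains and in a minority of narrower peaks.

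The other general factors were found in fewer domains. TFIIH, whose subunits open the promoter DNA and phosphorylate serine 5, overlapped 399 domains (31.3%, 28.8 to 33.9) and 4.70% of narrower peaks, against 5.91% of all. TFIIA, which stabilises TBP on DNA, overlapped 262 domains (20.5%, 18.4 to 22.9) and 3.14% of narrower peaks, against 3.93% of all. Taf1, the largest subunit of TFIID, overlapped 216 domains (16.9%, 15.0 to 19.1) and 3.10% of narrower peaks, against 3.73% of all. TFIIF, a partner of Pol II in the complex, overlapped 98 domains (7.69%, 6.35 to 9.28) and 1.31% of narrower peaks, against 1.60% of all. The order of the factors among broad domains followed the lengths of their lists in part only, since the Taf1 list, with 13518 peaks, was longer than the TFIIB list, with 10999. Most Taf1 peaks, 12380, had their midpoint outside all H3K4me3 peaks, as had 5485 of the 6588 TFIIA peaks.

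Few domains carried the whole set. The 6 general factors other than TBP were also counted together, and at least 1 of them lay in 1049 domains (82.3%) and in 26.6% of narrower peaks, against 29.1% of all. At least 3 of the 6 lay in 512 domains (40.2%) and in 1385 narrower peaks (5.18%), and all 6 lay in 12 domains and 8 narrower peaks. TFIIF had the shortest list of the 6, with 1262 peaks, and overlapped 98 domains. No more than 98 domains could therefore hold all 6. Counted over the 13 lists of Pol II, TBP, general factors, CBP, ETS1 and FAIRE, the median domain held 6 lists (quartiles 3 and 8). The median narrower peak held 0, with quartiles of 0 and 2. None of these counts was adjusted for width, which had medians of 2640 bp in domains and 630 bp in narrower peaks.

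CBP, a histone acetyltransferase found at enhancers and promoters, overlapped 319 domains (25.0%, 22.7 to 27.5) and 5.14% of narrower peaks, against 6.04% of all. ETS1, a transcription factor of the ETS family that is abundant in T cells, overlapped 293 domains (23.0%, 20.8 to 25.4) and 4.03% of narrower peaks, against 4.89% of all. FAIRE peaks, which mark nucleosome-poor DNA, overlapped 533 domains (41.8%, 39.1 to 44.5) and 16.2% of narrower peaks, against 17.4% of all. CBP and ETS1 often shared domains. ETS1 lay in 42.3% (37.0 to 47.8) of domains with CBP and in 16.5% (14.3 to 19.0) of domains without it, although domains with CBP were also wider, with a median of 3060 bp against 2530 bp. FAIRE lay in 70.5% of domains with CBP and in 32.2% of those without.

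A longer interval holds more peaks at equal density, so peaks were next counted per kb, each assigned to the H3K4me3 peak that held its midpoint. Per kb, the classes were far closer than in their shares. Total Pol II had 0.676 peaks per kb (0.650 to 0.702) in broad domains and 0.453 (0.444 to 0.463) in narrower peaks, a ratio of 1.49 (1.43 to 1.56). Ser5P had 0.529 and 0.304 peaks per kb, a ratio of 1.74 (1.65 to 1.83). Ser2P had 0.0262 and 0.00631 peaks per kb, a ratio of 4.15 (3.16 to 5.44) that rested on 104 and 120 peaks. Ser2P had the highest ratio of the 13 lists, but its density was far higher in the widest domains than in the others. In domains of 5000 bp or more it had 0.0891 peaks per kb and overlapped 25.0% of them. Its density was 0.0153 in domains under 3000 bp, 0.00696 from 3000 to under 4000 bp and 0.0111 from 4000 to under 5000 bp. Narrower peaks of 1000 bp or more had 0.00731 Ser2P peaks per kb.

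TBP had 0.564 peaks per kb in broad domains and 0.379 in narrower peaks, a ratio of 1.49 (1.42 to 1.56), equal to that of total Pol II. The 6 general factors together had 1.24 and 0.711 peaks per kb, a ratio of 1.75 (1.69 to 1.81). Among them TFIIH had a ratio of 2.14 (1.93 to 2.36), TFIIA 1.86 (1.63 to 2.13), TFIIB 1.75 (1.66 to 1.85), TFIIE 1.70 (1.61 to 1.80), TFIIF 1.53 (1.21 to 1.91) and Taf1 1.45 (1.25 to 1.66). The intervals of TFIIH and of TFIIB, TFIIE, TFIIF and Taf1 did not overlap, and those of TFIIH and TFIIA did. As these intervals treat peaks as independent, this is not a test of the order of the factors. CBP, with 0.105 and 0.0648 peaks per kb, had a ratio of 1.63 (1.45 to 1.82), and ETS1, with 0.0860 and 0.0506, one of 1.70 (1.50 to 1.93).

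FAIRE was the exception among the 13 lists. It had 0.171 peaks per kb in broad domains and 0.192 in narrower peaks, a ratio of 0.892 (0.821 to 0.969). In the central 500 bp of each H3K4me3 peak the ratio was 1.20 (1.00 to 1.43), on the other side of 1. FAIRE was lower in the broad class on 13 of the 20 chromosomes with broad domains and higher on 7. Total Pol II, Ser5P, TFIIA, TFIIB and TFIIE were higher per kb in the broad class on all 20, TBP and TFIIH on 19, ETS1 on 18, Ser2P, Taf1 and CBP on 16 and TFIIF on 15.

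Most of these ratios depended on which narrower peaks stood on the other side. Against the 5651 narrower peaks of 1000 bp or more, the ratio was 1.31 for total Pol II, 1.23 for TBP, 1.47 for Ser5P and 0.753 for FAIRE. H3K4me3 strength was then restricted, a choice made after seeing the data, to an area per bp at or above the broad median. That left 638 domains and 4451 narrower peaks, with median areas per bp of 676 and 651. Their median widths were 2730 and 940 bp, against 630 bp for all narrower peaks, so the choice also changed width. Among these strong peaks the ratio was 1.04 (0.982 to 1.11) for total Pol II, 1.17 (1.10 to 1.25) for TBP and 1.24 (1.16 to 1.33) for Ser5P. The difference was thus smaller for all 3 than between the whole classes, and for total Pol II the interval included 1. The parts of strength and of width in this were not tested. When all 1275 domains were set against these strong narrower peaks, which as a class had more H3K4me3 per bp than the domains, the ratio was 0.941 (0.893 to 0.990) for total Pol II, 1.00 (0.946 to 1.06) for TBP and 1.04 (0.978 to 1.10) for Ser5P.

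The factors did not all move in the same way when both classes were restricted to strong H3K4me3. The ratio was 0.970 (0.812 to 1.16) for Taf1, 1.78 (1.55 to 2.04) for TFIIH, 1.42 for TFIIA, 1.37 for TFIIB, 1.32 (0.953 to 1.83) for TFIIF and 1.26 for TFIIE. For ETS1 it was 3.16 (2.47 to 4.04), on 169 and 113 peaks, for CBP 1.70 (1.41 to 2.06), for Ser2P 4.14 (2.53 to 6.92) and for FAIRE 0.721 (0.641 to 0.810). Against strong narrower peaks without restricting the domains, Taf1 was at 0.721 (0.615 to 0.844) and TFIIH at 1.39 (1.22 to 1.57). The ETS1 ratio also depended on the treatment of gaps, at 1.00 (0.898 to 1.12) when those of 500 bp or less were joined. When both classes were restricted to H3K4me3 peaks with a FAIRE peak, which left 533 domains and 4332 narrower peaks, the ratio was 0.966 (0.907 to 1.03) for total Pol II, 0.936 for TBP, 0.956 (0.817 to 1.12) for ETS1 and 0.961 (0.794 to 1.16) for Taf1. For TFIIB it was 1.03 (0.961 to 1.11), for TFIIE 1.02 (0.944 to 1.09), for CBP 1.01 (0.882 to 1.16) and for TFIIF 1.18 (0.890 to 1.55), all with intervals that included 1. The interval lay above 1 for Ser2P, at 3.37 (2.16 to 5.32), TFIIH, at 1.58 (1.38 to 1.81), TFIIA, at 1.24 (1.04 to 1.48), Ser5P, at 1.16 (1.08 to 1.25), and the pooled general factors, at 1.08 (1.04 to 1.13). A required FAIRE peak sets a higher minimum of FAIRE peaks per kb in a short H3K4me3 peak than in a long one. The part of this selection in these ratios was not tested.

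**Figure D2:**
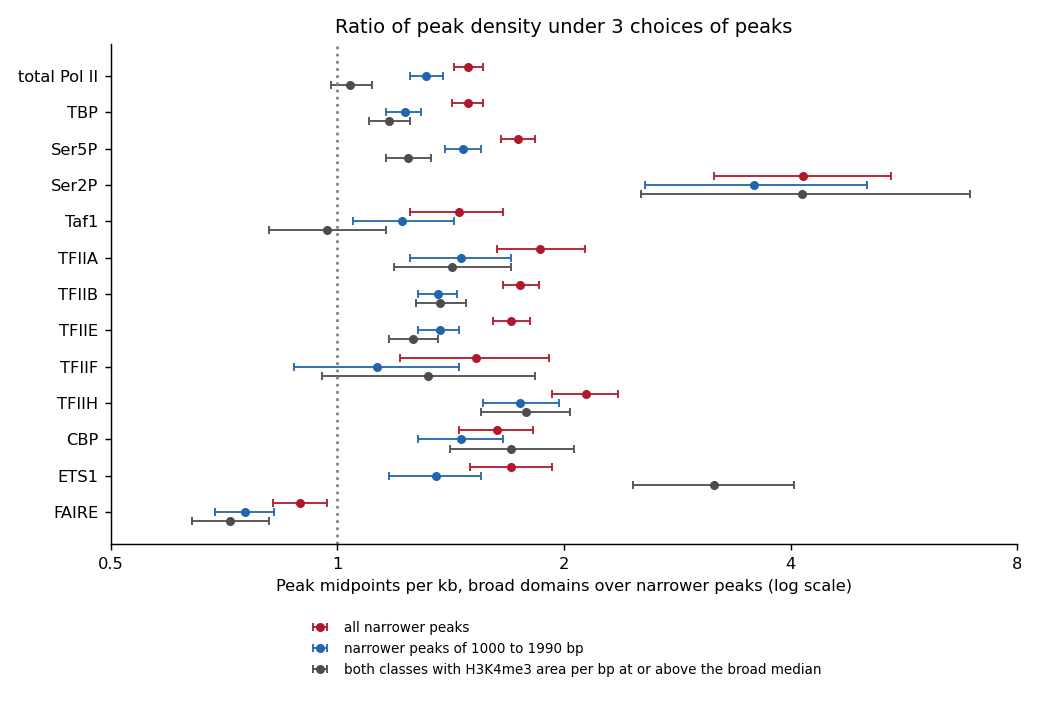
Ratio of peak midpoints per kb in broad domains over narrower peaks, on a log scale, for 13 lists. Red points use all 26738 narrower peaks, blue points those of 1000 bp or more (n = 5651), and grey points the peaks of both classes with H3K4me3 area per bp at or above the broad median (638 broad, 4451 narrower). Lines are 95% exact conditional binomial intervals; grey points lie at 1.04 for total Pol II, 3.16 for ETS1 and 4.14 for Ser2P.

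Peaks inside broad domains were also larger for most lists, which was compared within each list alone. Total Pol II peaks had a median width of 210 bp in broad domains and 170 bp in narrower peaks, and a median area 1.16 times as high. The area of total Pol II peaks per kb was 2.35 times as high in broad domains, against 1.49 for their number. For Ser5P the ratio of area per kb was 2.39, for TFIIH 2.25, for TFIIA 2.17, for TFIIE 2.16, for TFIIB 2.08, for TBP and ETS1 1.89, for CBP 1.67 and for Ser2P 5.49. It was 1.28 for Taf1 and 1.26 for TFIIF, below the ratios of their numbers, and 0.912 for FAIRE. Taf1, TFIIF and CBP went the other way in the median area of a peak, at 0.910, 0.745 and 0.961 times that in narrower peaks. No interval was computed for areas, since the depth behind them is unknown.

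The strongest peaks of several lists lay in broad domains more often than their share of all peaks. Of the 1804 total Pol II peaks in the top 10% by area, 573 (31.8%) had their midpoint in a broad domain, against 14.9% of all total Pol II peaks. For TFIIE it was 33.1% against 15.1%, for TFIIB 31.6% against 17.6%, for Ser5P 30.1% against 19.8% and for TBP 25.0% against 14.3%. For Taf1 and FAIRE the top 10% lay in broad domains about as often as the whole list, with 1.85% against 1.95% and 6.17% against 6.08%.

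Repeated peaks within a domain were common, in counts that were not divided by the greater width of the domains. Of the 1275 domains, 664 (52.1%) held at least 2 total Pol II peaks and 554 (43.5%) at least 2 TBP peaks, against 4.25% and 3.67% of narrower peaks. In those domains the outermost total Pol II peaks lay a median of 1217 bp apart (quartiles 640 and 2060 bp), and the outermost TBP peaks 1145 bp (577 and 2142 bp). Neighbouring TBP peaks in a domain lay a median of 500 bp apart (quartiles 280 and 891 bp), and neighbouring TFIIB peaks 480 bp (240 and 910 bp). Some were parted by very short gaps, so 2 peaks need not be 2 separate sites. In the widest domain, TBP peaks ran from 21140 to 21179 and from 21190 to 21249 bp from its start. At least 2 ETS1 peaks lay in 44 domains (3.45%) and at least 2 FAIRE peaks in 133 (10.4%), against 0.168% and 0.987% of narrower peaks.

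Within the broad class, shares and densities were set out over 4 classes of width, with densities pooled over the length of each class. Total Pol II overlapped 77.3% of the 821 domains under 3000 bp, 84.9% of the 252 domains from 3000 to under 4000 bp, 90.2% of the 102 domains from 4000 to under 5000 bp and all 100 domains of 5000 bp or more. Its density was 0.612, 0.623, 0.732 and 0.880 peaks per kb over these classes. Ser5P density was 0.441, 0.476, 0.676 and 0.743 peaks per kb. Pooled over length, both forms were thus denser, not just more numerous, in the domains of 4000 bp or more than in those under 3000 bp. The rise with width was not steady. The 149 domains less than 100 bp above the limit of 2000 bp had 0.709 total Pol II and 0.552 Ser5P peaks per kb. Both values lay above those of the class from 3000 to under 4000 bp. Pooling gives long domains more weight, so the class values need not hold for each domain.

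The 6 general factors together had 1.12, 1.25, 1.49 and 1.40 peaks per kb over the same classes, with intervals that overlapped between the last 2. TFIIB density was 0.438, 0.476, 0.575 and 0.581 peaks per kb. TFIIH density was 0.114, 0.152, 0.208 and 0.173 peaks per kb, with Poisson intervals that overlapped between the last 2 classes. ETS1 density was 0.0824, 0.0998, 0.122 and 0.0566 peaks per kb, and FAIRE density 0.192, 0.165, 0.177 and 0.116. The domains of 5000 bp or more thus had the most Pol II per kb and the least ETS1 and FAIRE per kb among the broad classes. Without the widest domain these values were 0.839 for total Pol II, 0.0587 for ETS1 and 0.120 for FAIRE. With it, the ETS1 interval, 0.0404 to 0.0771, overlapped that of domains under 3000 bp, 0.0701 to 0.0961. ETS1 covered 1.02% and 1.11% of the length of these 2 classes. The intervals of total Pol II (0.812 to 0.952) and FAIRE (0.0923 to 0.144) overlapped those from 4000 to under 5000 bp (0.655 to 0.815 and 0.140 to 0.220).

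**Figure D3:**
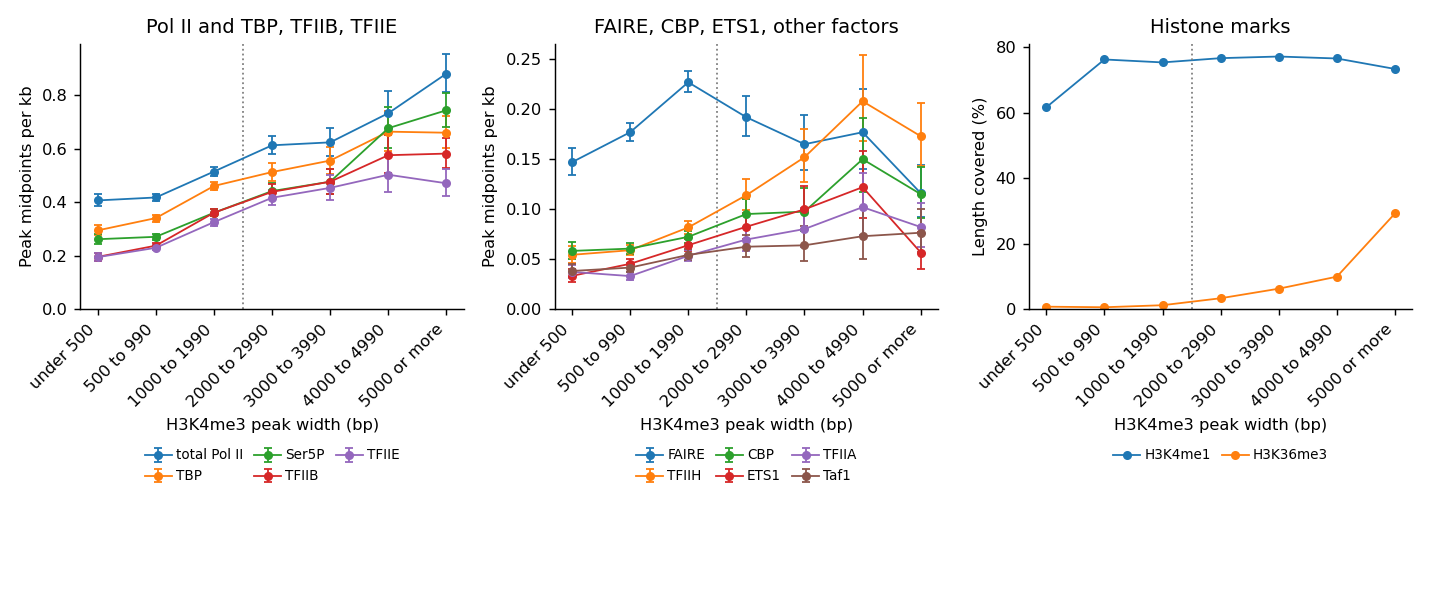
Peak midpoints per kb (left and middle, with 95% exact Poisson intervals) and percent of length covered by H3K4me1 and H3K36me3 (right) in 7 classes of H3K4me3 peak width in bp. The dotted line marks the limit of 2000 bp; total Pol II reaches 0.880 peaks per kb and H3K36me3 29.2% of length at 5000 bp or more, while FAIRE is highest in the class from 1000 to under 2000 bp, with 0.227 peaks per kb.

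H3K4me1, the mark of enhancers and of the flanks of promoters, was present in nearly all domains. It overlapped 1267 domains (99.4%, 98.8 to 99.7) and 84.8% of narrower peaks, against 85.4% of all. By length it covered 76.1% of broad domains and 73.4% of narrower peaks, a difference of 2.78 points. That difference turned to -6.17 points in the central 500 bp of peaks of 500 bp or more and to -0.892 points with gaps joined. It was 9.98 points with the upper 50% of the H3K4me1 list by area and 10.9 points against all narrower peaks of strong H3K4me3, both chosen after seeing the data. Its size and direction thus depended on the setting. The median domain was covered over 79.6% of its length (quartiles 65.0% and 92.5%), and 106 domains were covered throughout, a count not made for narrower peaks. At least 50% of the length was covered in 90.5% of domains and in 79.1% of narrower peaks. Inside the domains, H3K4me1 covered 77.2% of the outer parts and 74.0% of the middle part, the central 33.4% of length.

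H3K36me3, a mark laid down in transcribed gene bodies, was mostly absent from H3K4me3 peaks but not from the widest domains. It overlapped 207 domains (16.2%, 14.3 to 18.4) and 1.29% (1.16 to 1.43) of narrower peaks, against 1.97% of all. By length it covered 9.28% of broad domains and 0.827% of narrower peaks, a difference of 8.46 points. The difference was 5.00 points in the central 500 bp of peaks of 500 bp or more, 4.63 with gaps joined and 14.0 with domains taken from 3000 bp. The overlap was 8.16% under 3000 bp, 18.3% from 3000 bp, 32.4% from 4000 bp and 61.0% from 5000 bp, in the same 4 classes of domain width. In that last class it covered 29.2% of the length, or 27.0% without the widest domain. Where Ser2P peaks lay in a domain, H3K36me3 did so in 65.5% (38 of 58), against 13.9% of domains without Ser2P, and the domains with Ser2P were wider, with a median of 4135 bp against 2590 bp.

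Total Pol II, TBP and ETS1 were less dense in the outermost parts of broad domains than further inside. Total Pol II density was 0.493 peaks per kb in the outermost 250 bp and 0.748 between 750 and 1000 bp from the nearest edge. TBP density was 0.411 and 0.643, and that of ETS1 0.0314 and 0.108. Outside the edge, the first 250 bp had 0.193 total Pol II, 0.216 TBP and 0.0157 ETS1 peaks per kb. The ETS1 values at the edge rest on 20 midpoints inside and 10 outside. Density was thus lower outside the edge than inside it for all 3. The middle 33.4% of length held 36.5% (34.7 to 38.3) of total Pol II midpoints, 36.7% (34.7 to 38.7) of TBP midpoints and 40.0% (36.4 to 43.7) of FAIRE midpoints. It held 34.2% (29.4 to 39.4) of ETS1 midpoints, 33.3% (29.6 to 37.3) of TFIIH midpoints and 32.0% (27.7 to 36.6) of CBP midpoints.

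The surroundings of broad domains differed from those of the next narrower class. In the outermost 250 bp of the 5000 bp flanks, H3K4me1 covered 29.1% of length around broad domains and 14.6% around narrower peaks of 1000 bp or more, and H3K36me3 covered 23.0% and 17.5%. Total Pol II density there was 0.111 and 0.0372 peaks per kb. H3K36me3 lay within 5000 bp on 1 side of 46.9% of broad domains and on both sides of 11.8%. Around narrower peaks of 1000 bp or more it lay on 1 side of 37.4% and on both sides of 7.29%. These flanks include other H3K4me3 peaks, which covered 14.0% of the flanks of broad domains and 8.95% of those of the narrower class.

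**Figure D4:**
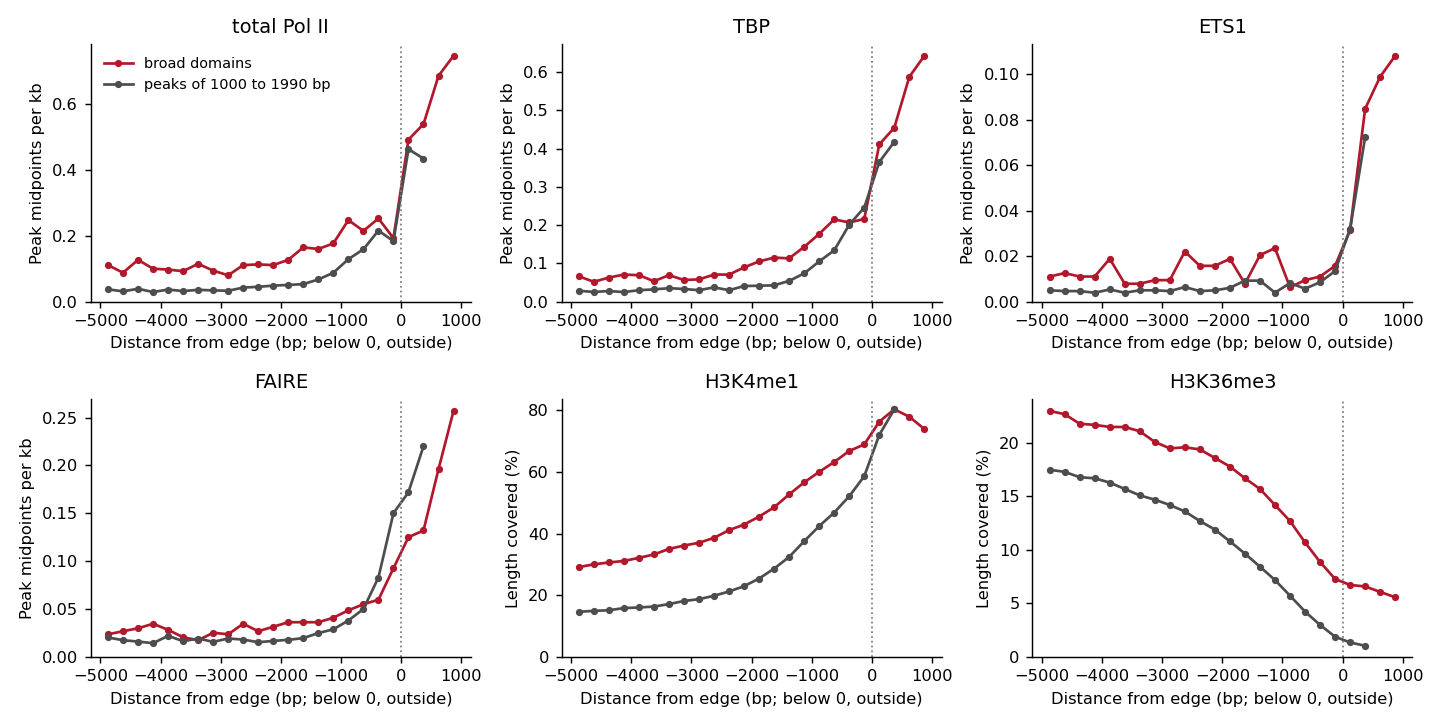
Peak midpoints per kb (total Pol II, TBP, ETS1, FAIRE) or percent of length covered (H3K4me1, H3K36me3) in windows of 250 bp by distance from the edge of the H3K4me3 peak, with distances below 0 outside it. Red lines are broad domains (n = 1275) and grey lines narrower peaks of 1000 bp or more (n = 5651); total Pol II climbs to 0.748 peaks per kb inside broad domains, while FAIRE in the first 250 bp is at 0.125 in broad domains and 0.172 in the other class.

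The widest domain lay on chromosome 14 at 54808561 to 54833690 and spanned 25130 bp. It held 50 total Pol II, 18 Ser5P and 5 Ser2P peaks but 2 TBP peaks, 1 peak each of Taf1, TFIIB and TFIIE, and none of TFIIA, TFIIF, TFIIH, CBP, ETS1 or FAIRE. H3K36me3 covered 88.1% and H3K4me1 97.7% of it. Its H3K4me3 area per bp was 289, close to the median of narrower peaks. Gaps of 30 and 50 bp parted it from the H3K4me3 peaks on either side. With gaps joined it was part of a run of 11 H3K4me3 peaks over 57180 bp, at 54785141 to 54842320, with 91 total Pol II and 12 Ser2P peaks and no CBP, ETS1 or FAIRE peak. This stretch thus held many total Pol II peaks and few TBP, TFIIB and TFIIE peaks, at 5, 7 and 2.

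A domain on chromosome 7 at 104875271 to 104886480 had another make-up. It spanned 11210 bp and held the most Ser5P peaks, 19, with 15 TBP, 15 TFIIB, 11 total Pol II, 10 TFIIE, 3 TFIIH and 3 Taf1 peaks. It had no Ser2P midpoint, and H3K36me3 covered 11.0% of it. TBP peaks were thus more numerous there than in the widest domain, and total Pol II peaks fewer. These counts do not give the length covered, since total Pol II peaks differed in length. The longest on chromosome 7 ran from 7960 to 9869 bp from the start of its domain. The longest in the widest domain ran from 20570 to 21369 bp from its start. The length covered by total Pol II was not compared between these domains.

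**Figure D5:**
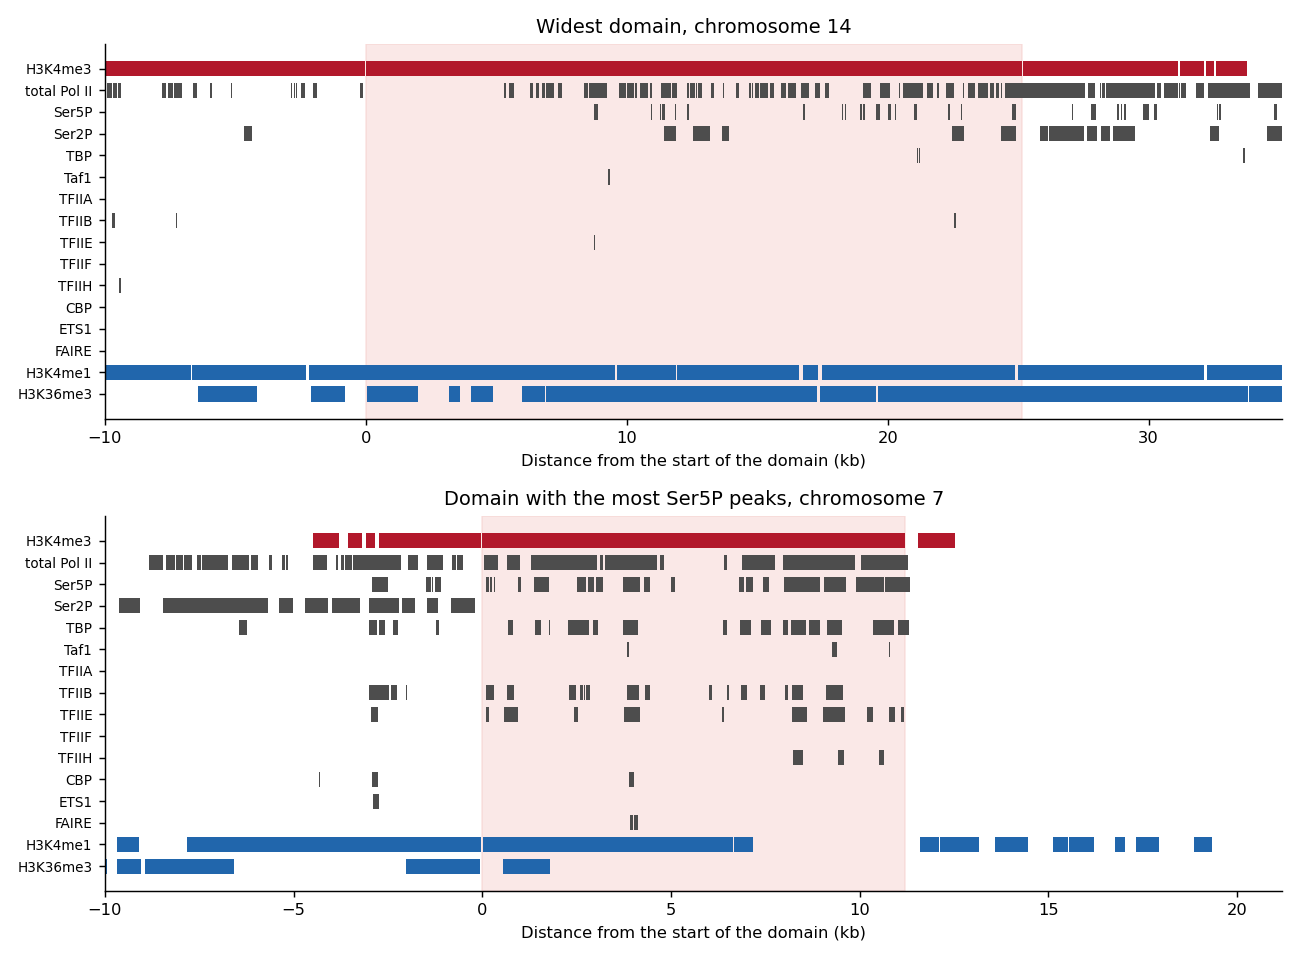
Peaks of 16 lists in and within 10 kb of 2 domains (shaded), by distance in kb from the start of the domain: the widest domain, on chromosome 14 (top, 25130 bp), and the domain with the most Ser5P peaks, on chromosome 7 (bottom, 11210 bp). The first holds 50 total Pol II and 2 TBP peaks, the second 11 total Pol II and 15 TBP peaks.

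The next widest domains also differed from each other. On chromosome 3, the domain at 94176851 to 94190060 (13210 bp) held 5 total Pol II, 5 Ser5P and 3 TBP peaks. On chromosome 2, the one at 101478431 to 101490830 (12400 bp) held 14 Ser5P, 7 total Pol II and 4 Ser2P peaks, and H3K36me3 covered 73.1% of it. On chromosome 17, the one at 51960331 to 51971810 (11480 bp) held 22 total Pol II, 8 TBP and 8 TFIIB peaks and no CBP, ETS1 or FAIRE peak. Peak numbers in these domains thus did not follow their width.

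The domain on chromosome 6 at 108779211 to 108790440 (11230 bp) held 13 total Pol II peaks and 8 each of TBP, TFIIB and TFIIE. On chromosome 9, the one at 20440231 to 20450830 (10600 bp) held peaks of all 13 lists. The eighth widest, on chromosome 11 at 52086151 to 52096390 (10240 bp), held 23 TBP, 16 TFIIE and 15 TFIIB peaks, with 3 total Pol II, 4 Ser5P and 6 Ser2P peaks. Its H3K4me3 area per bp of 1286 was above that of the other 7, and H3K36me3 covered 89.9% and H3K4me1 22.0% of it. Among these 8 domains, 6 had no ETS1 peak, as had 982 of all 1275 domains (77.0%).

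After the domains on chromosomes 14 and 17, total Pol II peaks were most numerous, at 15, in the domain on chromosome 14 at 54797401 to 54806340 (8940 bp), which held no Ser5P, TBP or TFIIE peak. It belonged to the same run as the widest domain. After those on chromosomes 7 and 14, Ser5P peaks were most numerous, at 18, in a domain of 9110 bp on chromosome 6 at 71272711 to 71281820, with 17 TFIIB, 14 TBP and 12 total Pol II peaks.

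The 3 domains with the most ETS1 peaks spanned less than 5000 bp. The domain on chromosome 15 at 73561831 to 73565620 (3790 bp) held 4 ETS1, 3 TFIIB, 2 CBP and 2 total Pol II peaks and no Ser5P peak. On chromosome 2, the one at 172801981 to 172805190 (3210 bp) held 4 ETS1, 5 TBP, 2 CBP, 2 total Pol II and 2 Ser5P peaks. On chromosome 17, the one at 45623701 to 45628530 (4830 bp) held 3 ETS1, 6 CBP, 7 TBP and 6 TFIIB peaks. All 3 held CBP, FAIRE and TBP peaks.

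No peak of any of the 13 lists lay in 94 domains (7.37%) and in 14440 narrower peaks (54.0%). These 94 domains had a median width of 2330 bp and a median H3K4me3 area per bp of 469, against 559 in the other domains. H3K4me1 covered 82.0% of their length and 75.8% of the others, and H3K36me3 overlapped 17.0% of them and 16.2% of the others. The widest spanned 4870 bp on chromosome 1 at 135028151 to 135033020, and the next 4440 bp on chromosome 1 at 182262791 to 182267230, where H3K36me3 covered 86.3%. The third lay on chromosome 2 at 103407441 to 103411120 and spanned 3680 bp.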

How the data were processed

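Chromatin immunoprecipitation and FAIRE were measured in double-positive thymocytes. The deposited lists give each peak's position and, as a signal, the area under the authors' track. Per the names of the deposited files, all tracks except FAIRE had artefacts removed and were scaled and background-subtracted. The build was mm9, per the submitters' processing notes. No source used here states the aligner, peak caller or threshold, the depth is unknown, and areas were compared within a list alone.

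H3K4me3 peaks were split at a width of 2000 bp. Overlap meant 1 bp or more, and densities and areas per kb used peak midpoints. The class of 4000 bp or more was split at 5000 bp after seeing the data. Chromosome counts used the 20 chromosomes with broad domains. Named regions were the 8 widest domains, the 3 with the most total Pol II, Ser5P and ETS1 midpoints, and the 3 widest without a peak of 13 lists. The members, lists and comparisons were chosen with earlier results of these data known. Counting was tested on simulated data. Alternatives changed the counting rule, list threshold, width limits, part of the peak, chromosomes, gaps and H3K4me3 strength. Software was scipy 1.17.1 and pandas 2.3.3 on numpy 2.4.6, with figures from matplotlib 3.10.9, under Python 3.11.15.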

Additional observations from a re-analysis of the deposited data

How the results depend on the processing

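No paired analysis was possible because each target has 1 list and no test was run. Over 10 results and 107 alternatives, 52 values stayed within the main interval, 48 moved beyond it and 7 turned direction. For covered length that interval treats the covered share as a share of the class's peaks and is a yardstick only. The single general factors were not among these results. Their ratios stayed within the main interval in 36 alternatives, moved beyond it in 27 and turned direction in 3, all of Taf1. The density ratios of broad domains over narrower peaks were as follows where those of the 10 results moved or turned. For the single general factors, only the 3 Taf1 values that turned are given. With any overlap of 1 bp counted, the ratio was 1.56 for Ser5P, 2.94 for Ser2P, 1.30 for TBP, 1.63 for the general factors, 1.40 for CBP, 1.47 for ETS1 and 0.719 for FAIRE. With each list cut to its upper 50% in area it was 1.59 for TBP and 1.85 for the general factors. Against narrower peaks of 1000 bp or more it was 1.31 for total Pol II, 1.47 for Ser5P, 1.23 for TBP, 1.39 for the general factors, 1.35 for ETS1 and 0.753 for FAIRE. With 3000 bp as the limit it was 1.57 for total Pol II, 1.94 for Ser5P, 1.57 for TBP, 1.81 for the general factors and 0.785 for FAIRE. In the central 500 bp, with narrower peaks under 500 bp left out, it was 2.02 for Ser5P, 1.66 for TBP, 1.39 for ETS1 and 1.20 for FAIRE. With gaps of 500 bp or less joined it was 1.40 for TBP, 1.64 for the general factors, 1.25 for CBP and 1.00 for ETS1. With a FAIRE peak required it was 0.966 for total Pol II, 1.16 for Ser5P, 0.936 for TBP, 1.08 for the general factors, 1.01 for CBP, 0.956 for ETS1 and 0.961 for Taf1. Against narrower peaks at or above the broad median of H3K4me3 area per bp, added after seeing the data, it was 0.941 for total Pol II, 1.04 for Ser5P, 1.00 for TBP, 1.13 for the general factors, 1.89 for CBP, 3.38 for ETS1, 0.666 for FAIRE and 0.721 for Taf1. With both classes restricted in that way, also added, it was 1.04 for total Pol II, 1.24 for Ser5P, 1.17 for TBP, 1.34 for the general factors, 3.16 for ETS1, 0.721 for FAIRE and 0.970 for Taf1. The causes were not tested. Autosomes alone, and leaving out the widest domain, which was added after seeing the data, moved no ratio beyond its interval.

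The H3K4me1 difference in covered length, 2.78 points, was 9.98 in the upper 50% of that list, a setting added after seeing the data, -6.17 in the central 500 bp, -0.892 with gaps joined and 10.9 against narrower peaks at or above the broad median of area per bp, but 2.53 with both classes restricted. The H3K36me3 difference, 8.46 points, was 6.32, 5.00 and 4.63 in the first 3 of these settings and 14.0 with 3000 bp as the limit. No condition was compared across animals, and unknown depth limits how far a missing peak can be read as absence of binding.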

Other observations

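Domains were split by H3K36me3 after the data had been seen. In the 62 domains with H3K36me3 over at least 50% of their length, Ser2P peaks lay in 33.9%, against 1.87% of the 1068 domains with no H3K36me3. Total Pol II had 0.855 and 0.639 peaks per kb in these groups and Ser5P 0.695 and 0.487. TBP, at 0.519 and 0.560 peaks per kb, and TFIIE, at 0.376 and 0.446, were closer. FAIRE had 0.0865 and 0.181 peaks per kb and ETS1 0.0432 and 0.0884. The median widths were 3550 and 2515 bp, and the part of width in these values was not tested. The 62 domains included the widest of all, with 50 total Pol II, 18 Ser5P and 2 TBP peaks and no ETS1 or FAIRE peak. Values without it were not computed for this split. A further 145 domains had H3K36me3 over less of their length. They spanned 3850 bp at the median and had TFIIH in 53.1%, CBP in 37.9% and ETS1 in 34.5%. These shares were 28.0%, 23.2% and 21.5% in the domains with no H3K36me3, and 37.1%, 25.8% and 21.0% in the 62 domains. They were not adjusted for width. Per kb, the 145 domains and those with no H3K36me3 had 0.186 and 0.136 TFIIH, 0.139 and 0.100 CBP, and 0.0946 and 0.0884 ETS1 peaks.

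Peaks of all 13 lists lay in 2 domains, picked out after their values were seen. They were the domain on chromosome 9 at 20440231 to 20450830 and one on chromosome 6 at 71319631 to 71328240, which spanned 8610 bp and had an ETS1 peak at its border, with no ETS1 midpoint inside. A further 5 domains held 12 of the 13 lists, from 3500 to 10240 bp in width. The narrowest of these, on chromosome 5 at 104183451 to 104186950, held peaks of all lists but Ser2P. No narrower peak held 12 or more of the 13 lists, and these counts were not adjusted for width.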
